A study of Mus musculus with 8 samples.

Results

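The mouse OAS family was examined in RNA sequencing of primary mouse embryonic fibroblasts (MEFs). Its members were taken by name from the deposited table of normalized counts: Oas1a, Oas1g, Oas2, Oas3, Oas1b, Oas1c, Oasl1 and Oasl2. All 8 names were rows of that table, which held 24972 genes. MEFs are the fibroblast cultures grown from dissociated embryos, here embryos at embryonic day 14 and cultures taken through 2 passages. There were 8 libraries of total RNA, 2 of each of 4 genotypes, and all were untreated. The genotypes were wild type (WT), heterozygous for Tfam with both Zbp1 alleles (Tfam+/-), lacking Zbp1 with both Tfam alleles (Zbp1-/-), and heterozygous for Tfam and lacking Zbp1 (Tfam+/-Zbp1-/-). Tfam encodes the protein that packages mitochondrial DNA, and Zbp1 a sensor of left-handed double-stranded nucleic acid. No source used here says whether both libraries of a genotype are from different embryos, so p-values measure only the spread between these libraries.

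The oligoadenylate synthetases bind double-stranded RNA and join ATP into 2′-5′-linked oligoadenylates. These act as a second messenger of the antiviral response. In the mouse, Oas1a, Oas1g, Oas2 and Oas3 encode active enzymes. Oas1b and Oas1c encode Oas1 paralogs without synthetase activity, and Oas1b is annotated in RefSeq as a transcribed pseudogene. Oasl1 and Oasl2 encode the OAS-like proteins, which carry ubiquitin-like domains. Oasl2 makes oligoadenylates, while Oasl1 does not and is known as a repressor of Irf7 translation. The genes are classical targets of type I interferon, whose receptor acts through ISGF3, a complex with Stat2 and Irf9 among its subunits that binds an interferon-stimulated response element (ISRE).

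Both groups of genes lie on chromosome 5 (assembly GRCm38.p6, equal to mm10 in coordinates). Oasl2 and Oasl1 occupy 41 kb (chromosome 5, 114896926 to 114937911). The Oas1, Oas2 and Oas3 genes occupy 191 kb (120730333 to 120921648) with 10 family genes in all, of which 4 (Oas1d, Oas1e, Oas1f and Oas1h) were at or close to 0 in these cells. Oas2 spans 120730333 to 120749886, Oas3 120753098 to 120777684, Oas1c 120800194 to 120812540, Oas1g 120876142 to 120887613 and Oas1a 120896256 to 120907544, all on the minus strand. Oas1b (120812635 to 120824163) is on the plus strand. On the plus strand of the other block, Oasl2 spans 114896926 to 114912245 and Oasl1 114923143 to 114937911.

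The sequences just upstream of several of these genes are shown because the members moved together between genotypes. RefSeq promoter windows of GRCm38.p6 were at hand for 6 of the 8 members, all but Oas2 and Oas1b. Each line gives the last 120 bases before a start used by that table, 5′ to 3′, with capitals marking matches to the ISRE core, which is GAAA, any 2 bases and GAAA again, and was searched on both strands. Oas1a is chr5:120907526-120907645 and Oas1g is chr5:120887614-120887733, both on the minus strand. The third line is the stretch between the Oas1c and Oas1b starts, which point away from each other, read towards Oas1b (chr5:120812515-120812634, plus strand). Oas3 is chr5:120777660-120777779 on the minus strand. Oas1a, Oas3 and Oas1c have a further annotated start inside these windows.
Oas1a: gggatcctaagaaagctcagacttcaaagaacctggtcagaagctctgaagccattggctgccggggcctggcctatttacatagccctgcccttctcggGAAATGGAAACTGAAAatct
Oas1g: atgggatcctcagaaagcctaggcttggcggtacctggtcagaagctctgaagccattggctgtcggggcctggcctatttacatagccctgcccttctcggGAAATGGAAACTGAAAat
Oas1b: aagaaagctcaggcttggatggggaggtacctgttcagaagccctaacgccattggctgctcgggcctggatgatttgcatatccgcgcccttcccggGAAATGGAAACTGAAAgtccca
Oas3: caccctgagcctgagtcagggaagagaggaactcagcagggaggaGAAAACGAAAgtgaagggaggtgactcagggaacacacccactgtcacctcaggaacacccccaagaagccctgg

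The same 16 bases, made of a pair of overlapping matches, stood in front of Oas1a (positions -20 to -5 from the start), Oas1g (-18 to -3) and Oas1b (-22 to -7). Counted from the further annotated start of Oas1a (120907544), nearly all of its 16 bases lie inside the gene. Oas3 held a single match of 10 bases at -75 to -66. Oas1a and Oas1g shared an unbroken run of 56 bases in these windows, against 19 bases for Oas1a and Oas1b. In the Oas1c window the Oas1b matches were read on the opposite strand, beginning at -114 and -108. The windows of Oasl1 and Oasl2 held no match to these letters. Both windows run past a further annotated start (114923143 for Oasl1 and 114896926 for Oasl2), so not all of their bases lie upstream of that start. Of 32851 promoter windows of 250 bases in the table, 1131 (3.44%) held the core. A match describes the sequence and says nothing of binding in these cells.

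The libraries held 16752835 to 18303036 normalized counts in total, with 16051 to 16261 genes above 0. Values were the authors' normalized counts, and the most frequent low value of a library was 0.93 to 1.10. Between 22.2% and 34.9% of the values up to 20 times that value lay within 0.01 of a whole multiple of it, so the number of reads behind a single-digit value is not known. All 8 fibroblast markers (among them Col1a1, Pdgfra and Thy1) were above 0 in every library and summed to between 333047 and 548630. The 8 leukocyte markers were also above 0 in every library. They summed to 4517 and 4452 (WT), 5686 and 5193 (Tfam+/-), 2850 and 2570 (Zbp1-/-) and 2307 and 2294 (Tfam+/-Zbp1-/-). Endothelial markers (4 genes) summed to 233 to 386, mostly from Kdr and Tek, while Pecam1 and Cdh5 read 7.48 or less in every library. In RNA from a whole culture, fewer cells of a type and less RNA per cell cannot be told apart. Tfam read 629 and 610 (WT), 278 and 365 (Tfam+/-), 675 and 471 (Zbp1-/-) and 424 and 375 (Tfam+/-Zbp1-/-). The 4 heterozygous libraries were the lowest, and the difference from WT in Tfam+/- did not pass the test over all genes (log2 change -0.96 ± 0.21 SE, limma adjusted p = 0.163). Zbp1 was low in WT (7.34 and 3.19), higher in Tfam+/- (64.6 and 69.8), and 0.862 to 3.79 in the 4 libraries labelled as lacking it, so that the WT libraries hardly check that label. Tfam+/- replicate 1 and Zbp1-/- replicate 2 stood apart from the other 6 libraries. Across the genes tested, their log2 values correlated with those 6, where the genotype differed, at 0.958 to 0.966 and 0.956 to 0.968, while the 6 correlated with each other across genotypes at 0.974 to 0.987. Results were therefore also computed from the other 6 libraries, where the remaining library of each of those genotypes is assumed to vary like the other groups. That fit called more genes in each of the 6 comparisons, so the share of all genes called is given with it.

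The loss of 1 Tfam allele was examined first in cells with Zbp1. Every member of the family was higher in both Tfam+/- libraries than in both WT libraries. Oasl2, Oas1a, Oas2, Oasl1 and Oas1b rose, by 17.1-fold for Oasl2, the active OAS-like enzyme, and 10.9-fold for Oas1a, a short active synthetase. The rise of Oas3 and of Oas1c did not pass the test, and Oas1g was too low to be tested.

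Among the active synthetases, Oas1a read 18.3 and 17.4 normalized counts in WT and 222 and 189 in Tfam+/-. In Zbp1-/- it read 40.0 and 41.0, and in Tfam+/-Zbp1-/- 25.2 and 30.0. The Tfam+/- libraries were far above the other 6, and the 4 genotypes did not overlap. Against WT, its log2 change in Tfam+/- was 3.45 ± 0.19 (SE; limma adjusted p = 0.00135). Oas1g, its close copy, read 0.962 and 0 (WT), 29.6 and 8.84 (Tfam+/-), 0 and 4.40 (Zbp1-/-) and 3.72 and 7.73 (Tfam+/-Zbp1-/-). It was higher in the Tfam+/- libraries than in the rest, but the 2 libraries lay far apart, and its mean over the 8 libraries was under the minimum of 10 set for testing. Without that minimum its log2 change was 3.63 (adjusted p = 0.294).

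Oas1a and Oas1g cannot be fully separated. Of the 50-base windows of the GENCODE transcripts of Oas1a, 57.6% occurred also in Oas1g, and 45.7% of those of Oas1g occurred also in another gene, nearly all of them in Oas1a. At 75 bases the shares were 47.6% and 36.9%. The sources used here do not say how reads that match both were counted. Dividing such reads between both genes does not change their sum, but leaving them out would lower it. That sum was 19.3 and 17.4 (WT), 252 and 198 (Tfam+/-), 40.0 and 45.4 (Zbp1-/-) and 28.9 and 37.8 (Tfam+/-Zbp1-/-). Oas1g gave at most 20.5% of that sum in any library, so the pattern of the sum was that of Oas1a. Oas1c shared 9.82% of its 50-base windows with other genes, mostly Oas1e, and the remaining members 2.78% or less.

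Oas2, a longer synthetase with a catalytic and an inactive OAS unit, read 2.92 and 3.69 in WT and 43.1 and 47.1 in Tfam+/-. Without Zbp1 it read 10.0 and 7.61 (Zbp1-/-) and 9.39 and 7.81 (Tfam+/-Zbp1-/-). The 2 genotypes without Zbp1 overlapped each other and lay above WT. Tfam+/- cells differed from WT by 3.42 ± 0.30 on the log2 scale (adjusted p = 0.00667), which is 10.7-fold. Oas3, the longest synthetase, read 6.81 and 1.85 (WT), 38.5 and 36.4 (Tfam+/-), 5.04 and 5.46 (Zbp1-/-) and 6.55 and 4.86 (Tfam+/-Zbp1-/-). The WT libraries enclosed those of the 2 genotypes without Zbp1, and only the Tfam+/- libraries stood out. Its log2 change of 3.02 ± 0.51 did not pass the test (adjusted p = 0.0694). It passed under 4 of 17 alternatives, over which the adjusted p ran from 0.00147 to 0.311.

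Of the Oas1 paralogs without activity, Oas1b read 16.3 and 7.28 (WT), 67.5 and 83.4 (Tfam+/-), 8.97 and 11.2 (Zbp1-/-) and 15.8 and 20.3 (Tfam+/-Zbp1-/-). The log2 difference between Tfam+/- and WT was 2.67 ± 0.39 (adjusted p = 0.0434), or 6.35-fold. Oas1c, which starts from the same intergenic stretch in the other direction, read 22.3 and 25.7 in WT and 60.4 and 39.6 in Tfam+/-. Without Zbp1 the values were 28.0 and 26.3 (Zbp1-/-) and 20.6 and 20.4 (Tfam+/-Zbp1-/-). Its log2 change of 1.00 ± 0.26 did not pass the test (adjusted p = 0.267), and its 95% interval of 0.39 to 1.61 lay below those of Oas1a (3.00 to 3.90) and Oasl2 (3.51 to 4.69). The Oas1b level divided by the Oas1c level in the same library was 0.734 and 0.284 (WT), 1.12 and 2.11 (Tfam+/-), 0.320 and 0.426 (Zbp1-/-) and 0.767 and 0.992 (Tfam+/-Zbp1-/-). The ratio was thus highest in Tfam+/- although the neighbours share one short stretch of upstream sequence; it was not tested.

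Of the OAS-like genes, Oasl1 read 3.81 and 8.12 (WT), 73.4 and 49.3 (Tfam+/-), 11.9 and 15.1 (Zbp1-/-) and 8.25 and 14.3 (Tfam+/-Zbp1-/-). The log2 change from WT to Tfam+/- was 3.21 ± 0.43 (adjusted p = 0.0337), or 9.24-fold. Oasl2 read 29.6 and 51.2 in WT and 680 and 686 in Tfam+/-. In Zbp1-/- it read 74.7 and 70.3, and in Tfam+/-Zbp1-/- 114 and 101. The 4 genotypes of Oasl2 did not overlap, with WT lowest and Tfam+/- highest. From WT to Tfam+/- its log2 change was 4.10 ± 0.25 (adjusted p = 0.0017), the 5th highest of the 13267 genes tested, and that of Oas1a was the 10th. The strand used in counting is not given, and opposite-strand genes overlap Oasl1 (Gm13822), Oas2 (Gm43068) and Oas1c (Gm43069), so reads of these pairs cannot be told apart.

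**Figure D1:**
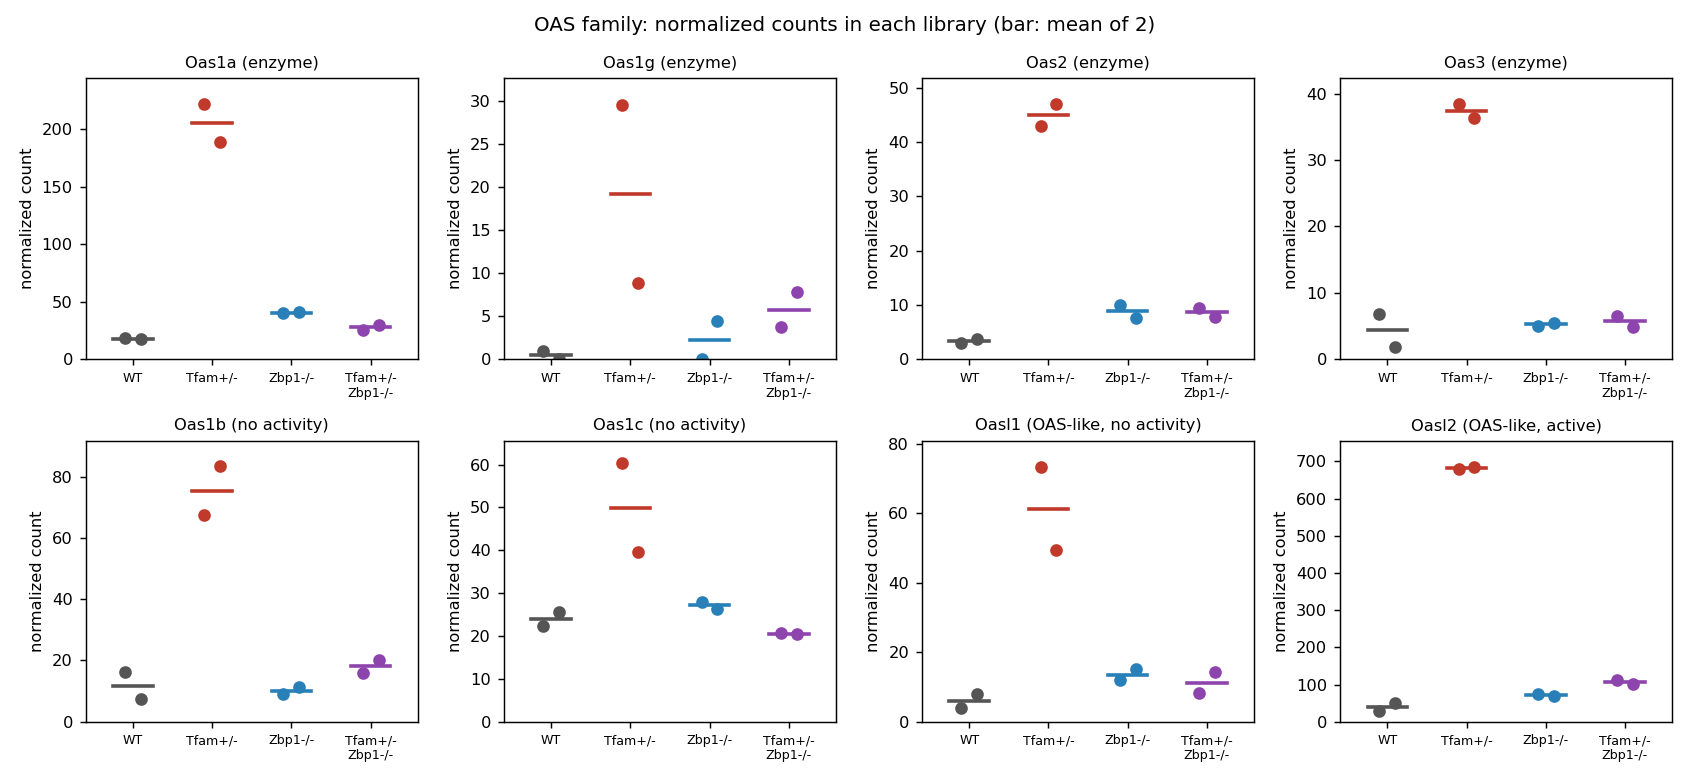
Normalized counts (vertical axes, each from 0) of the 8 family genes in each of the 8 libraries by genotype (horizontal axes); each point is a library and each bar the mean of 2. Both Tfam+/- libraries lie above the other 6 for each gene, from 680 and 686 for Oasl2 down to 29.6 and 8.84 for Oas1g.

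In Tfam+/- against WT, 5 of the 7 members tested rose, where 0.565% of all genes tested rose. Their median log2 change was 3.21, and that of all genes tested -0.01. Oas2 and Oas3 reached the minimum for testing only through their Tfam+/- libraries, and of the 5 other tested members 4 rose (median 3.21). In 8 of the 8 members, tested or not, the Tfam+/- libraries lay above both WT libraries (23.3% of all genes tested), and also above all of the other 6 libraries (4.73%). The calls of Oas1a and Oasl2 held without any 1 of the 8 libraries. Without either WT library, where 12 of all genes were called in place of 97, the call of Oas2 was lost (adjusted p = 0.0761 without replicate 1 and 0.0618 without replicate 2), Oasl1 lost its call without either library of WT, Tfam+/- or Tfam+/-Zbp1-/-, and Oas1b without any 1 of the 8.

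The loss of Zbp1 was then examined in cells with 1 Tfam allele. All 7 members tested fell in Tfam+/-Zbp1-/- against Tfam+/-. Oas1a fell 7.23-fold, Oasl2 6.32-fold, Oasl1 5.15-fold and Oas1c, the member that moved least, 2.32-fold. The lower Tfam+/- library of each member, Oas1g included, was above the higher Tfam+/-Zbp1-/- library.

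By gene, the log2 change was -2.85 ± 0.19 for Oas1a (limma adjusted p = 0.00183), -2.27 ± 0.30 for Oas2 (adjusted p = 0.00927) and -2.53 ± 0.51 for Oas3 (adjusted p = 0.0367). The paralogs without activity fell by 2.01 (Oas1b, SE 0.39, adjusted p = 0.0333) and 1.21 (Oas1c, SE 0.26, adjusted p = 0.0447) on the log2 scale. Of the OAS-like genes, Oasl1 fell by 2.36 (SE 0.43, adjusted p = 0.0277) and Oasl2 by 2.66 (SE 0.25, adjusted p = 0.00366). Oas1g without the minimum for testing had a log2 change of -1.43 (adjusted p = 0.456). The active synthetases and the OAS-like genes thus covered overlapping ranges of change in both comparisons, and no difference between genes was tested.

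These 7 calls of 7 stand beside 2.32% of all genes tested that fell and a median log2 change of 0.14 over all genes, against -2.36 for the members. Without Oas2 and Oas3, which reached the minimum for testing only through the Tfam+/- libraries, the count was 5 of 5. TMM rescaling, an alternative way to set library totals, brought the median of all genes to 0.015 and turned the split of calls over all genes from 440 higher and 308 lower to 313 higher and 429 lower. On that scale the 7 members still fell, by between 1.34 (Oas1c) and 2.98 (Oas1a). Non-overlapping libraries in this direction were seen in 8 of 8 members and in 13.5% of all genes tested. The call of Oas1a held without any 1 library. Without either Tfam+/-Zbp1-/- library, where 13 and 12 of all genes were called in place of 748, the other 6 calls were lost; Oas3 and Oas1b lost theirs also without either Tfam+/- library, Oasl1 also without Tfam+/- replicate 1, and Oas1c without any 1 library other than Tfam+/- replicate 2.

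Markers of other cell types moved in this comparison too. Of the 8 leukocyte markers, 7 fell in Tfam+/-Zbp1-/- against Tfam+/- (median log2 change -1.19), while Ptprc had a change of -0.78 (limma adjusted p = 0.279). Of all genes tested 2.32% fell. Of 4 epithelial markers, Krt8 (-1.19) and Krt18 (-1.64) were tested and both fell, while Epcam and Cdh1 read 6.34 or less in every library. Of 4 endothelial markers, Tek (1.31) and Kdr (-0.54) were tested, went opposite ways and were not called. Among the 8 fibroblast markers, 1 was called higher (Col3a1, 0.59) and 0 lower. In Tfam+/- against WT 0 of the 8 leukocyte markers were called by limma and 5 had an unadjusted p under 0.05 (median 0.41), as had 8.74% of all genes. Of the epithelial markers tested there, Krt8 was 2.06-fold higher (limma unadjusted p = 0.0043, adjusted p = 0.213). Krt18 changed 1.17-fold (unadjusted p = 0.321). In Zbp1-/- against WT 1 leukocyte marker was called lower and 7 had an unadjusted p under 0.05 (median -0.52). Of all genes 1.06% were called there, in either direction, and 19.7% had such a p. In Tfam+/-Zbp1-/- against WT 3 leukocyte markers were called lower and 8 had an unadjusted p under 0.05 (median -0.81), against 1.38% and 12.6% of all genes. The median log2 change of the 7 tested members was 0.88 in Zbp1-/- against WT and 0.66 in Tfam+/-Zbp1-/- against WT. In each, 0 of the 7 were called by limma. Oas1b was below 0 in the former and Oas1c in the latter. Over all genes the medians were 0.11 and 0.12. The part of leukocytes and other cell types in the family's change was not tested.

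**Figure D2:**
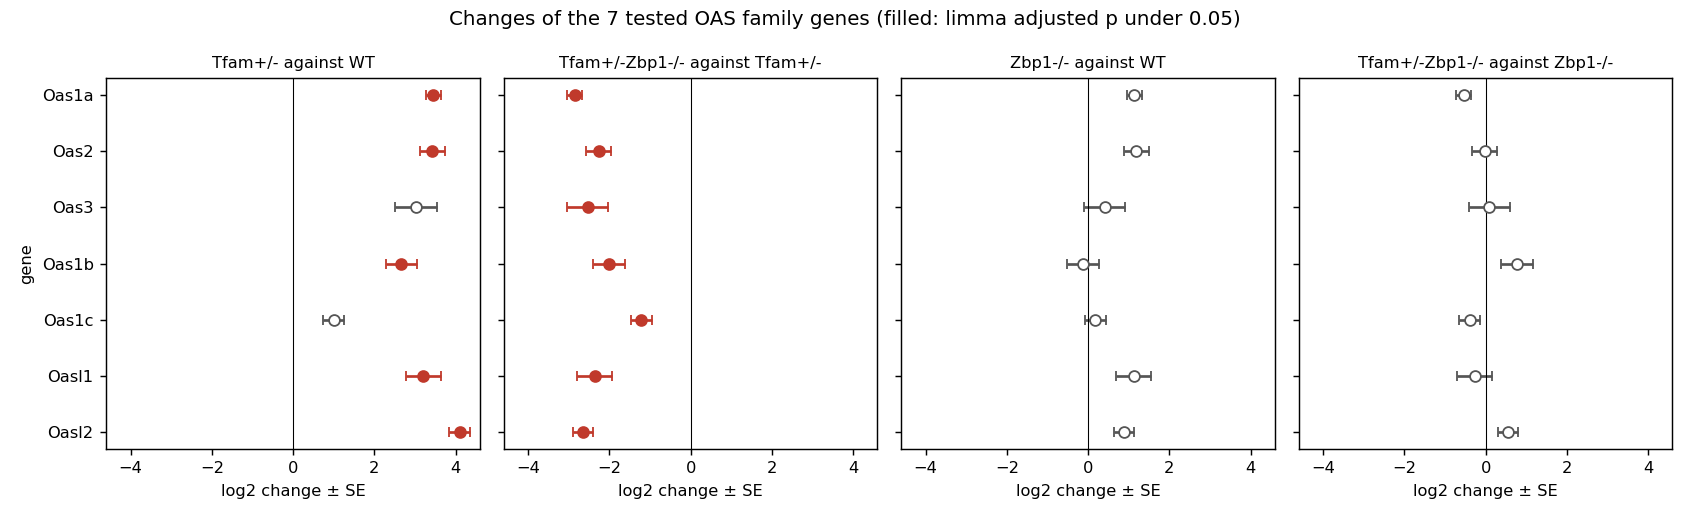
Log2 change with its standard error (horizontal axes) of the 7 tested family genes (vertical axis) in 4 comparisons; filled points had a limma adjusted p under 0.05. The genes lie right of 0 in Tfam+/- against WT, left of 0 in Tfam+/-Zbp1-/- against Tfam+/-, and between -0.54 and 0.78 in Tfam+/-Zbp1-/- against Zbp1-/-.

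Whether the change with the Tfam allele depended on Zbp1 was tested as an interaction, the change with Zbp1 absent minus the change with Zbp1 present. It was called for 3 of the 7 members tested, Oas1a, Oasl2 and Oas2, all in the lower direction, where 0.445% of all genes tested were called lower. Oas2, like Oas3, reached the minimum for testing only through its Tfam+/- libraries, and of the 5 other members 2 were called. The log2 value was -3.99 ± 0.27 for Oas1a (limma adjusted p = 0.0128), -3.54 ± 0.35 for Oasl2 (adjusted p = 0.0193) and -3.45 ± 0.43 for Oas2 (adjusted p = 0.0299). The other 4 did not pass: Oasl1 had -3.48 ± 0.61 (adjusted p = 0.0746), Oas3 -2.93 ± 0.71 (0.146), Oas1b -1.89 ± 0.55 (0.215) and Oas1c -1.39 ± 0.36 (0.169). The median of the 7 was -3.45, and 0 over all genes. From the 6 libraries without the pair that stood apart, 6 members were called, with all but Oas1c passing, where 9.14% of all genes were called lower. The call of Oas1a was lost without either WT library, either Tfam+/-Zbp1-/- library or Zbp1-/- replicate 2. Without each of these 5 libraries limma called 0 of all genes tested, and 1005 to 1210 had an unadjusted p under 0.05. Oasl2 lost its call without these or Tfam+/- replicate 1, and Oas2 without any 1 of the 8.

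In cells without Zbp1, the family was not called changed by the Tfam allele. Of the 7 members tested in Tfam+/-Zbp1-/- against Zbp1-/-, 0 were called by limma, while 0.415% of all genes were called. An unadjusted p under 0.05 was seen for 1 of the 7 and for 12.3% of all genes, a like share. That member was Oas1a, which was lower (log2 change -0.54, 95% interval -0.99 to -0.09). The widest interval upward was that of Oas1b (0.78, -0.15 to 1.71). For Oasl2 the change was 0.56 (-0.03 to 1.15), an interval that lies below the change seen with Zbp1 present. Oas2 (-0.03, -0.75 to 0.70), Oas3 (0.09, -1.11 to 1.29), Oasl1 (-0.27, -1.31 to 0.76) and Oas1c (-0.39, -0.999 to 0.22) had intervals on both sides of 0. The intervals of Oas1b, Oas3, Oasl1 and Oasl2 reached past 1 or -1, so 2-fold differences in these genes are not excluded.

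Cells without Zbp1 were also set against WT. In Zbp1-/- against WT, 0 of 7 were called by limma, while 1.06% of all genes were called. An unadjusted p under 0.05 was seen for 4 of the 7, all of them higher, and for 19.7% of all genes. They were Oas1a (log2 change 1.14 ± 0.19, adjusted p = 0.0533), Oas2 (1.18 ± 0.30, 0.133), Oasl1 (1.12 ± 0.43, 0.231) and Oasl2 (0.88 ± 0.25, 0.155). In these 4 genes both Zbp1-/- libraries were above both WT libraries, as in Oas1c (0.18 ± 0.26), whereas Oas3 (0.40 ± 0.51) and Oas1b (-0.12 ± 0.39) overlapped. A share of 42.1% of all genes tested was higher without overlap in this comparison. From the 6 libraries without the pair that stood apart, Oas1a (1.12, adjusted p = 0.00634) and Oasl2 (0.92, adjusted p = 0.00695) were called. That fit called 34.3% of all genes, so 2 of 7 is not more than the share of all genes.

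Of the 7 tested in Tfam+/-Zbp1-/- against WT, 0 were called by limma, while 1.38% of all genes were called. An unadjusted p under 0.05 was seen for 3 of the 7 and for 12.6% of all genes. Oasl2 came closest, at 1.44 ± 0.25 (adjusted p = 0.0523), followed by Oas2 (1.16 ± 0.30, 0.155) and Oas1a (0.60 ± 0.19, 0.239). From the 6 libraries all 3 were called, with adjusted p-values of 1.97e-05, 0.0391 and 0.0479, in a fit that called 44.8% of all genes, a share like that of the members. The median of all genes was 0.12 in this comparison and 0.11 in Zbp1-/- against WT, and TMM rescaling brought both to 0 within 0.004. On that scale Oasl2 had a change of 1.32 in Tfam+/-Zbp1-/- and 0.77 in Zbp1-/-, and Oas1a one of 0.48 and 1.03. All of these comparisons share libraries with each other.

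Levels were compared between members per kilobase (kb) of merged exons. In WT, Oas1c (9.97 ± 1.00, SD, n = 2) and Oas1a (9.47 ± 0.36) were highest and overlapped, then Oasl2 (6.33 ± 2.40) and Oas1b (5.93 ± 3.22), which also overlapped, and Oasl1 (2.29 ± 1.17). Oas2 (0.743 ± 0.122), Oas3 (0.613 ± 0.497) and Oas1g (0.206 ± 0.291) were lowest, and each overlapped the next. In Tfam+/- the order changed: Oas1a (109 ± 12.5) and Oasl2 (107 ± 0.615) led and overlapped, and Oas1b followed (37.9 ± 5.65). Oasl1 (23.5 ± 6.54) and Oas1c (20.8 ± 6.11) overlapped below it, then Oas2 (10.1 ± 0.637), Oas1g (8.20 ± 6.26) and Oas3 (5.29 ± 0.209), where Oas1g overlapped both. Oas1c, which was level with the highest member in WT, was thus 5th in Tfam+/-.

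Without Zbp1 the orders differed again. In Zbp1-/-, Oas1a (21.5 ± 0.39 per kb) was above Oasl2 (11.4 ± 0.49) and Oas1c (11.3 ± 0.51), which overlapped. With both lesions, Oasl2 (16.9 ± 1.36) and Oas1a (14.7 ± 1.82) overlapped at the top, and Oas1b (9.05 ± 1.59) and Oas1c (8.53 ± 0.05) overlapped below them. Oas2 (1.98 ± 0.39 and 1.93 ± 0.25) and Oas3 (0.742 ± 0.04 and 0.807 ± 0.17) were low in both.

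The sum over the 8 members per kb was 35.3 and 35.8 (WT), 340 and 305 (Tfam+/-), 56.6 and 59.5 (Zbp1-/-) and 55.5 and 61.7 (Tfam+/-Zbp1-/-). The genotypes without Zbp1 overlapped each other and lay between WT and Tfam+/-. The 4 active synthetases Oas1a, Oas1g, Oas2 and Oas3 made up 33.3% and 28.8% of that sum in WT, 42.9% and 39.3% (Tfam+/-), 42.7% and 43.9% (Zbp1-/-) and 32.4% and 35.1% (Tfam+/-Zbp1-/-). The OAS-like genes made up 17.3% and 31.1% (WT), 39.7% and 41.5% (Tfam+/-), 28.8% and 28.3% (Zbp1-/-) and 37.8% and 34.6% (Tfam+/-Zbp1-/-). The inactive paralogs Oas1b and Oas1c made up the rest, 49.4% and 40.1% in WT but 17.4% and 19.2% in Tfam+/-, with 27.8% to 30.3% in the 4 libraries without Zbp1. Genes for proteins with synthetase activity, Oasl2 included, thus gave 46.4% and 51.2% of the family's transcripts per length in WT and 74.3% and 74.6% in Tfam+/-. With 2 libraries a genotype no test was made of these shares.

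**Figure D3:**
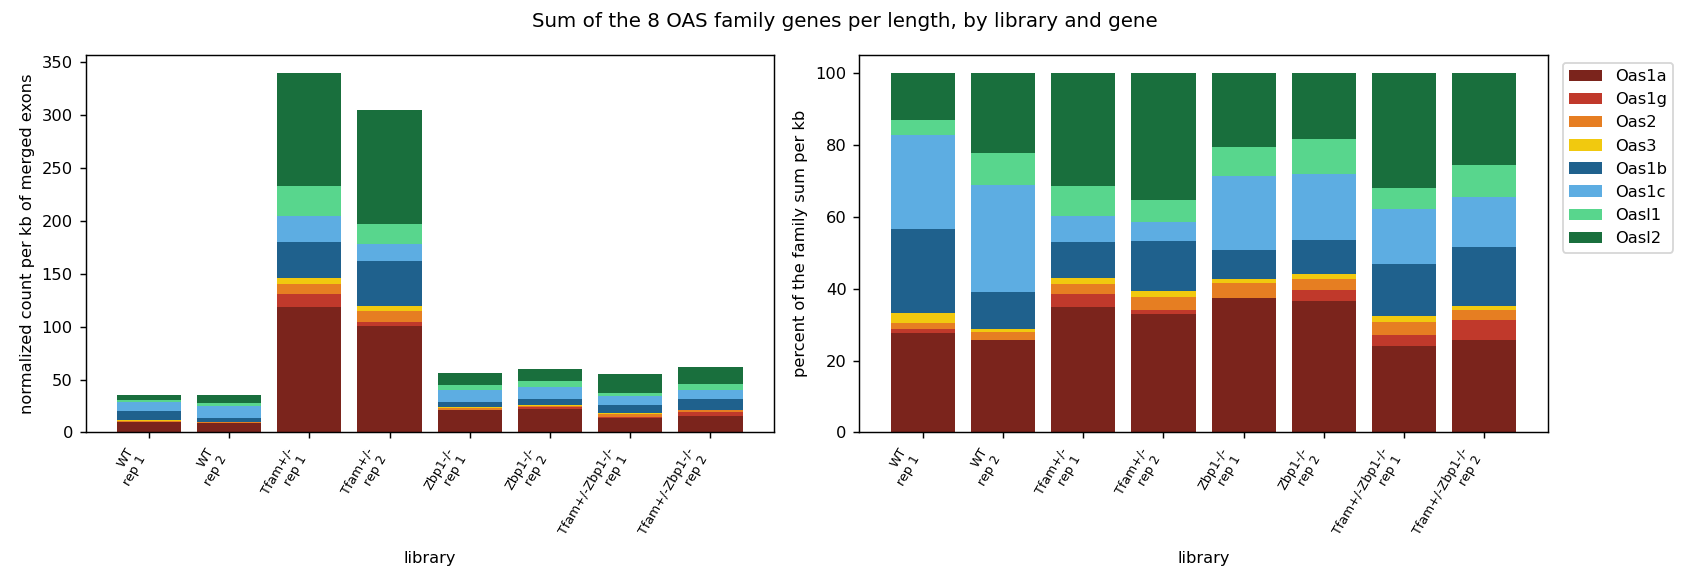
Left, the family sum in normalized counts per kb of merged exons in each library (from 0), stacked by gene; right, the same as a percent of the sum. The Tfam+/- bars reach 340 and 305 against 35.3 and 35.8 in WT, and the share of Oas1b and Oas1c together (blue) is 17.4% and 19.2% there against 49.4% and 40.1% in WT.

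Pde12 and Akap7 encode phosphodiesterases that degrade oligoadenylates, and 0 of the 2 were called by limma in any of the 6 comparisons, with 0 unadjusted p-values under 0.05. Of all genes 0.415% to 5.64% were called and 8.74% to 20.8% had such a p, so 0 of 2 is near those shares. Pde12 read 521 and 564 (WT), 420 and 537 (Tfam+/-), 532 and 450 (Zbp1-/-) and 567 and 538 (Tfam+/-Zbp1-/-). Akap7 read 166 and 162 (WT), 84.1 and 158 (Tfam+/-), 174 and 132 (Zbp1-/-) and 160 and 181 (Tfam+/-Zbp1-/-). The lowest value of each was in Tfam+/- replicate 1, a library of the pair that stood apart. From WT to Tfam+/- the log2 change was -0.19 ± 0.16 for Pde12 (limma adjusted p = 0.575) and -0.50 ± 0.30 for Akap7 (adjusted p = 0.559).

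Of 9 genes of interferon signalling to the ISRE, 3 rose in Tfam+/- against WT: the ISGF3 subunits Stat2 and Irf9, and the interferon regulatory factor Irf7. Stat2 read 649 and 613 (WT), 2198 and 1877 (Tfam+/-), 809 and 949 (Zbp1-/-) and 881 and 851 (Tfam+/-Zbp1-/-). Its log2 change was 1.69, with 1.48 for Irf9. Irf7 read 28.9 and 44.9 (WT), 475 and 347 (Tfam+/-), 51.7 and 73.2 (Zbp1-/-) and 67.3 and 82.3 (Tfam+/-Zbp1-/-). Its log2 change of 3.46 was close to those of Oas1a and Oas2, while those of Stat2 and Irf9 lay between those of Oas1c and Oas1b. The receptor genes Ifnar1 and Ifnar2, the kinase genes Jak1 and Tyk2, and Irf1 and Irf3 were not called, and the median of the 9 was 0.33.

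The same 3 genes fell in Tfam+/-Zbp1-/- against Tfam+/- (Stat2 -1.23, Irf9 -0.93 and Irf7 -2.43), and Ifnar1 rose (0.65, adjusted p = 0.0303). The median of the 9 was -0.03. The interaction was called for Stat2 (-1.70), Irf9 (-1.19) and Irf7 (-3.19), and not for the other 6. In the 3 remaining comparisons 0 of 9 were called by limma, and unadjusted p-values under 0.05 numbered 7 in Zbp1-/- against WT, 6 in Tfam+/-Zbp1-/- against WT and 1 in Tfam+/-Zbp1-/- against Zbp1-/-. Over all genes such p-values made up 19.7%, 12.6% and 12.3% of those tested.

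Genes whose products OAS-like proteins are known to act on differed among themselves. Ddx58, which encodes the RNA sensor RIG-I, rose in Tfam+/- against WT (1.33, adjusted p = 0.0163) and fell in Tfam+/-Zbp1-/- against Tfam+/- (-0.92, adjusted p = 0.0177). Mb21d1, which encodes the DNA sensor cGAS, was not called in either (-0.05 and 0.30).

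**Figure D4:**
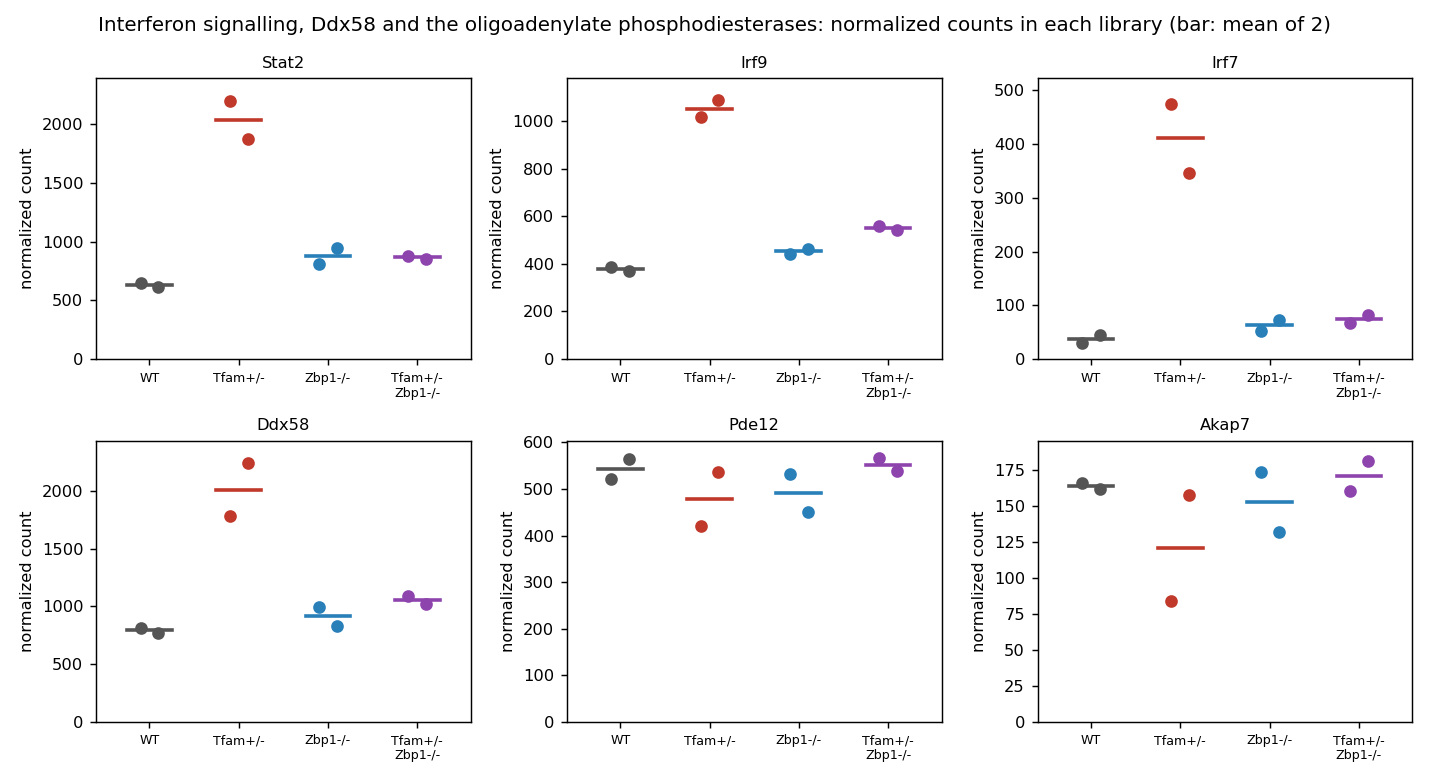
Normalized counts (vertical axes, each from 0) in each library by genotype for Stat2, Irf9 and Irf7 (top row) and for Ddx58, Pde12 and Akap7 (bottom row); points are libraries and bars the mean of 2. The Tfam+/- libraries stand above the rest for Stat2, Irf9, Irf7 and Ddx58, whereas Pde12 lies between 420 and 567 and Akap7 between 84.1 and 181 over all libraries.

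The nearest tested genes around the family on chromosome 5 were not called with it. The 3 tested genes nearest on each side of each block were taken, 12 in all, and 0 of 12 were called by limma in any of the 6 comparisons. Of all genes tested 0.415% to 5.64% were called in these comparisons, so 0 of 12 is near that share. In Tfam+/- against WT 0 had an unadjusted p under 0.05, as had 8.74% of all genes. In Tfam+/-Zbp1-/- against Tfam+/- 1 had, 2610524H06Rik, which was higher (0.53), as had 20.8% of all genes. Such p-values numbered 1 in the interaction and 1 in Tfam+/-Zbp1-/- against WT. They numbered 2 in Zbp1-/- against WT and 2 in Tfam+/-Zbp1-/- against Zbp1-/-. Over all genes they made up 16.0%, 12.6%, 19.7% and 12.3% in that order. Their log2 changes ran from -0.20 to 0.33 in Tfam+/- against WT and from -0.35 to 0.53 in Tfam+/-Zbp1-/- against Tfam+/-. All but the nearest lay 73.5 to 297.9 kb from their block. The nearest, 2210016L21Rik, begins 4.2 kb beyond Oasl1 and read 356 and 378 in WT and 553 and 386 in Tfam+/-. Its higher value was again in the library that stood apart.

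**Figure D5:**
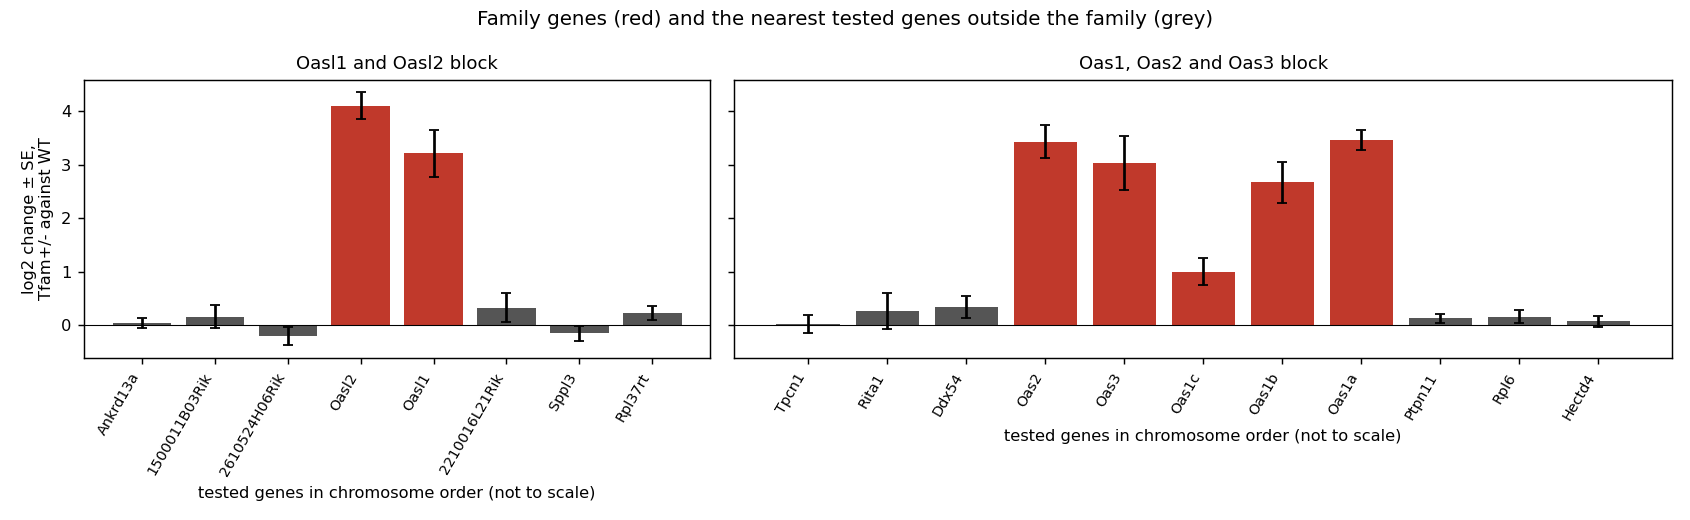
Log2 change with its standard error in Tfam+/- against WT (vertical axis, bars from 0) of the tested genes in chromosome order, not to scale, for the OAS-like block (left) and the Oas1 to Oas3 block (right). Family genes (red) reach between 1.00 and 4.10, and their 12 neighbours (grey) between -0.20 and 0.33.

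The genes outside the family whose pattern over the 8 libraries was most like the mean of the 7 tested members were Rnf213 (Pearson r = 0.996), Bst2 (0.994), Stat2 (0.992), Igtp (0.991) and Helz2 (0.990). Bst2 encodes tetherin, which holds budding virions at the cell surface, and Igtp an interferon-inducible GTPase. Rnf213 read 2271 and 2318 (WT), 8776 and 9006 (Tfam+/-), 3195 and 3074 (Zbp1-/-) and 3149 and 3138 (Tfam+/-Zbp1-/-). Bst2 read 276 and 276, 2357 and 1752, 358 and 443, and 440 and 472 in the same order. These genes were picked for their likeness, the points are the same 8 libraries, and the Tfam+/- pair sets most of each correlation. Among the members themselves, the correlation with the mean of the others ran from 0.858 (Oas1c) and 0.894 (Oas1b) to 0.986 (Oas1a).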

How the data were processed

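The authors deposited 1 normalized count per gene and library, used here as a signal with no value below 0; most values are not whole. Reads were aligned with STAR 2.6.1a, with Salmon also named and mm10 as the build, per the submitters' processing notes. The sources used here do not give the counting, the scaling or the use of strand. Between 22.2% and 34.9% of values up to 20 reads lay within 0.01 of a whole read, so whole reads were not recovered and no count model was run.

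Libraries were grouped by their labels. Genes with a mean of at least 10 normalized counts over the 8 libraries (13267 of 24972) were tested with limma 3.58.1 in R 4.3.3 on log2(normalized count + 1), with a mean-variance trend and 1 fit over the 4 genotypes (4 residual degrees of freedom). Tests were two-sided, Benjamini-Hochberg adjusted over all genes tested, and called under 0.05. Fold changes are on the log2(normalized count + 1) scale, which understates those of low genes. The procedure was tested on simulated data.

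All 8 members were named by rule, with gene lists, the 3 nearest neighbours a side and the 5 genes of most similar pattern. The members and lists were chosen with earlier results of these data known. Positions and promoter sequences are from RefSeq (GRCm38.p6), where 24407 table names (97.7%) matched a symbol. Exon lengths and transcripts are from GENCODE. Alternatives changed the pseudocount, filter, scaling, trend, libraries and covariates. Some genes of the lists are not reported here.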

Additional observations from a re-analysis of the deposited data

Results flagged for a closer look

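For 3 members the change with the Tfam allele differed with the Zbp1 genotype by the interaction test. The log2 value was -3.99 for Oas1a, -3.54 for Oasl2 and -3.45 for Oas2, with limma adjusted p-values of 0.0128, 0.0193 and 0.0299. Oas2 reached the minimum mean for testing only through its Tfam+/- libraries (mean of 6.91 over the other 6). With 2 libraries a genotype, no value could be tested as far from the others of its group.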

How the results depend on the processing

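Changing a single choice left 619 of the 725 log2 changes of single members on the same side of 0 and of the threshold, made 26 pass it, ended 72 calls and reversed 8. The 619 include Oas1g with 1 alternative in each comparison. That alternative is the fit that gave its value, so it was unchanged by construction. The counts of members called moved as follows. In Tfam+/- against WT (5), 2 were called with a minimum mean of 50 (2 members tested), 3 from the genotypes compared alone and 2 to 4 without 1 library. In Tfam+/-Zbp1-/- against Tfam+/- (7), 2 were called with a minimum of 50, where 5.29% of all genes were called in place of 5.64%. Counts without 1 library are not set beside these, as such a fit leaves 1 library in a group. In the interaction (3), 6 were called with a shared term for the pair of libraries that stood apart. From the other 6 libraries the estimates are the same by construction. The shared term called 16.9% of all genes. In Zbp1-/- against WT (0), 2 were called without a trend, 3 with the shared term and 2 from the 6 libraries, where 1.24%, 35.6% and 34.3% of all genes were called. For Tfam+/-Zbp1-/- against WT (0), 1 was called with a pseudocount of 5, without a trend or from the genotypes compared alone, and 3 with the shared term or from the 6 libraries. Of all genes these settings called 1.52%, 1.73%, 44.7%, 42.5% and 44.8%, so the counts in the last 3 are near or below the share of all genes. In Tfam+/-Zbp1-/- against Zbp1-/- (0), 0 were called under each alternative that kept 2 libraries in the groups compared. Of all genes, the shared term called 23.8%, and changes of pseudocount, filter, scaling or trend 0.142% to 0.462%. A block for the replicate number and the genotypes compared alone each called 0.00754%, so 0 members says little there. Fewer libraries or genes are part of the settings that leave some out; elsewhere the cause was not tested.

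With the replicate number as a block, 3 members were called in Tfam+/- against WT, 3 in Tfam+/-Zbp1-/- against Tfam+/- and 0 in the interaction. The numbers did not pair the samples: deviations of same-numbered libraries correlated at between -0.698 and 0.059 over the 6 pairs of genotypes. Over all genes the block gave 28 calls in Tfam+/- against WT, in place of 97, 351 in place of 748 in Tfam+/-Zbp1-/- against Tfam+/- and, by limma, 0 in place of 88 in the interaction, where 1381 had an unadjusted p under 0.05.

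The reversed values were all of changes that were not called, and each arose without 1 library. In Zbp1-/- against WT, Oas3 (0.40) ranged from -0.32 without WT replicate 2 to 1.13 without replicate 1, and Oas1b (-0.12) from -0.65 without WT replicate 2 to 0.41 without replicate 1, with 0.02 without Zbp1-/- replicate 1. Oas3 in Tfam+/-Zbp1-/- against WT (0.50) had -0.23 and 1.22 without those WT libraries. For Tfam+/-Zbp1-/- against Zbp1-/-, Oas2 (-0.03) had 0.15 without Zbp1-/- replicate 1, -0.21 without Zbp1-/- replicate 2 and 0.09 without Tfam+/-Zbp1-/- replicate 2. In the same comparison Oas3 (0.09) had -0.092 and 0.27, and Oasl1 (-0.27) had 0.088 and -0.64, without Tfam+/-Zbp1-/- replicate 1 and 2. Depth limits Oas1g, Oas2 and Oas3, whose values outside Tfam+/- were at most 10.0.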

Other observations

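Of the 4 Oas1 paralogs that are not members, Oas1h was at 0 in all 8 libraries. Oas1d read 1.10 in Tfam+/- replicate 1 and 0 elsewhere, Oas1f read 0.946 in Tfam+/-Zbp1-/- replicate 1 and 0 elsewhere, and Oas1e read 1.09 in Zbp1-/- replicate 2, 0.927 in Tfam+/-Zbp1-/- replicate 1 and 0 elsewhere. None of them was higher in both Tfam+/- libraries than in WT, and all lie within the same 191 kb as Oas1a to Oas3.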
